A study of Mus musculus with 17 samples.

Results

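Alveolar type 1 (AT1) cells were followed through 8 of their genes: Ager, Hopx, Akap5, Aqp5, Pdpn, Rtkn2, Cav1 and Emp2. They were chosen by gene symbol as markers of this cell type, and all 8 were found among the 18262 genes of the deposited table. AT1 cells are the thin, flat epithelial cells that line most of the surface of the lung's air sacs and across which oxygen and carbon dioxide pass into the capillaries. The other epithelial cell of the air sac, the alveolar type 2 (AT2) cell, makes surfactant and can give rise to new AT1 cells.

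Bulk RNA sequencing had been done on 16 whole lungs of C57BL/6 mice, 4 in each of 4 groups, and on 1 sample of an injected cell product. Naive untreated mice had neither a tumor nor cells injected, and naive IL12-GEMy mice had received 8000000 genetically engineered myeloid cells that secrete interleukin 12 (IL12-GEMys) by vein. Tumor untreated mice carried M3-9-M ffluc-mCherry rhabdomyosarcoma, a muscle tumor grown from 500000 cells placed in the gastrocnemius muscle of the leg. Tumor IL12-GEMy mice had the same tumor and received the same cell dose on day 12. Lungs of tumor-bearing mice were taken on day 15, and treated lungs 3 days after the cells. The cell product came from bone marrow cells given a lentivirus and grown with SCF, FLT3L and IL-6. The labels give neither age nor sex, nor whether tumor cells had reached the lungs, and they do not say that the 4 lungs of a group came from separate mice, so every p-value reflects how far these libraries scatter and nothing more. Descriptions of tumor-bearing lungs hold a digit and letters. The letters differ within each group, and the digit is the same within a group and differs between untreated and treated lungs. What they stand for is not given, so treatment of tumor-bearing mice cannot be told apart from it. Descriptions of naive lungs hold no such letters, so tumor-bearing against naive lungs cannot be told apart from it either. In whole lung, fewer cells of a type and less RNA per cell cannot be told apart.

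The lung libraries held 27566836 to 36815061 assigned reads. Values are FPKM, reads per 1000000 and per kilobase of the gene's genomic span. Of the 8 members, 8 passed the minimum of 0.5 FPKM in at least 4 lungs, and they had between 1637 and 79801 reads in a lung. A gene was called when limma's adjusted p was under 0.05 (Benjamini-Hochberg over all 10284 genes that passed the minimum). Differences are log2(FPKM + 0.5) unless another scale is named.

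Of the 8 genes, 4 were called lower in tumor untreated lungs than in naive untreated lungs, where 27.2% of all genes tested were. The promoters of these 4 are shown because the genes were called. They are the RefSeq windows on GRCm38.p6 from 250 bases before to 50 after the start, written 5′ to 3′ on the gene's strand: Ager at chr17:34597600-34597899 on the plus strand, Akap5 at chr12:76324641-76324940 on the plus strand, Aqp5 at chr15:99590778-99591077 on the plus strand and Emp2 at chr16:10313919-10314218 on the minus strand. Capitals mark matches, on either strand, to the CCAAT box (CCAAT) or the GC box (GGGCGG), and no match overlaps another.
Ager: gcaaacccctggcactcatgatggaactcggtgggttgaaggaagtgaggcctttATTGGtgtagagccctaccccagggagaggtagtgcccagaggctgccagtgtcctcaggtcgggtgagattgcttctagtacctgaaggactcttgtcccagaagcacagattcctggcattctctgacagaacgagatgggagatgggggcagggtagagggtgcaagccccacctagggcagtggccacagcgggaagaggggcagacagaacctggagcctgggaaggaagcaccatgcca
Akap5: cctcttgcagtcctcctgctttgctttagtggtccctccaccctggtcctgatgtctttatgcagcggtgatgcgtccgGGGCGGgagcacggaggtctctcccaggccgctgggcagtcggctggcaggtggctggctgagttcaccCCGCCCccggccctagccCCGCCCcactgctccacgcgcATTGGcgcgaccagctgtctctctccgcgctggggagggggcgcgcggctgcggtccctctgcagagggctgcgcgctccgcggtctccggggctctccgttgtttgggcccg
Aqp5: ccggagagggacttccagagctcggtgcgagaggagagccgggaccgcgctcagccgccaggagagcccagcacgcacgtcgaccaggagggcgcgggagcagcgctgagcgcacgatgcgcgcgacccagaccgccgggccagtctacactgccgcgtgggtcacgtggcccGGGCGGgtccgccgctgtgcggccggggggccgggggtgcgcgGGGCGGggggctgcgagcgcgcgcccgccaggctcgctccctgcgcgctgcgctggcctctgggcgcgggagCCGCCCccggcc
Emp2: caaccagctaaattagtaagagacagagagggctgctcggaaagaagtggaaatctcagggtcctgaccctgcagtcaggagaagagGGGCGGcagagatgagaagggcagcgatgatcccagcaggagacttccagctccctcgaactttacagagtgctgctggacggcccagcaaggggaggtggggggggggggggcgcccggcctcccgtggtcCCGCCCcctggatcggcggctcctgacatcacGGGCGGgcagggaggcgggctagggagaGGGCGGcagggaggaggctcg
GC boxes were present 3 times in Akap5, 3 times in Aqp5 and 4 times in Emp2, and a CCAAT box once in Ager and once in Akap5. Over the 9 promoters listed for 7 of the 8 genes, 5 held a GC box, against 35.7% of all 32851 promoters in the table, and 4 held a CCAAT box, against 37.4%. The letters TNAAGTG, the core bound by NKX2 factors such as the lung regulator NKX2-1, were in 1 of the 9 (a Hopx promoter), against 11.5%, and GGAATG, the core bound by TEAD factors, in 0 of 9, against 14.7%. The AP-1 core TGANTCA was in 0 of 9, against 7.81%, and TATAAA in 1, a Cav1 promoter, against 13.6%. The 4 windows were 58.3% (Ager), 65.7% (Emp2), 70.7% (Akap5) and 79.7% (Aqp5) G or C, and the median of all promoters was 52.7%. Rtkn2 was not matched in that table.

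Levels of different genes were compared as reads per 1000000 and per kilobase of merged exon (GENCODE M21), because the deposited scale counts introns and lowers long genes. On this scale the order in naive untreated lungs began with Ager at 1169 ± 99.0 (SD, n = 4), followed by Hopx at 434 ± 22.4 and Cav1 at 393 ± 34.2. Emp2 followed at 245 ± 12.0, Aqp5 at 141 ± 13.6, Akap5 at 96.8 ± 15.8, Pdpn at 87.1 ± 1.20 and Rtkn2 at 36.3 ± 2.15. The ranges of Hopx and Cav1 overlapped, as did those of Akap5 and Pdpn, and no other neighbours in this order did. On GRCm38 (mm10) the genes span chr17:34597850-34600937 (Ager), chr5:77086986-77115123 (Hopx), chr6:17306335-17341328 (Cav1) and chr16:10281749-10313968 (Emp2). Aqp5 spans chr15:99591028-99594829, Akap5 chr12:76324891-76334151, Pdpn chr4:143267409-143299564 and Rtkn2 chr10:67979570-68043864. Hopx shares 412 of its exon bases (27.2%) with the antisense gene Hopxos and Rtkn2 shares 216 (3.89%) with Gm16212. Whether reads were counted by strand is not given in the sources used here, so reads of these pairs cannot be told apart.

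The lungs of each group did not hold these genes evenly. In tumor untreated replicate 4 the 8 genes were shifted from the naive untreated mean by a median of -1.38 log2, from -1.77 to -0.53, and hemoglobin transcripts made up 5.41% of its reads, the most of the 16 lungs. Naive IL12-GEMy replicate 4 had a median shift of -0.73 with 0.335% hemoglobin, and tumor IL12-GEMy replicate 4 had -0.70 with 0.484%. The other 13 lungs lay between -0.40 and 0.05, and naive untreated replicate 4 was among these at -0.06. These 3 lungs share the number 4, and no label says whether a number stands for a shared step. Results that rest on the lowest of these libraries are given with and without them; the libraries were picked by these same genes, so the values without them are descriptions.

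**Figure D1:**
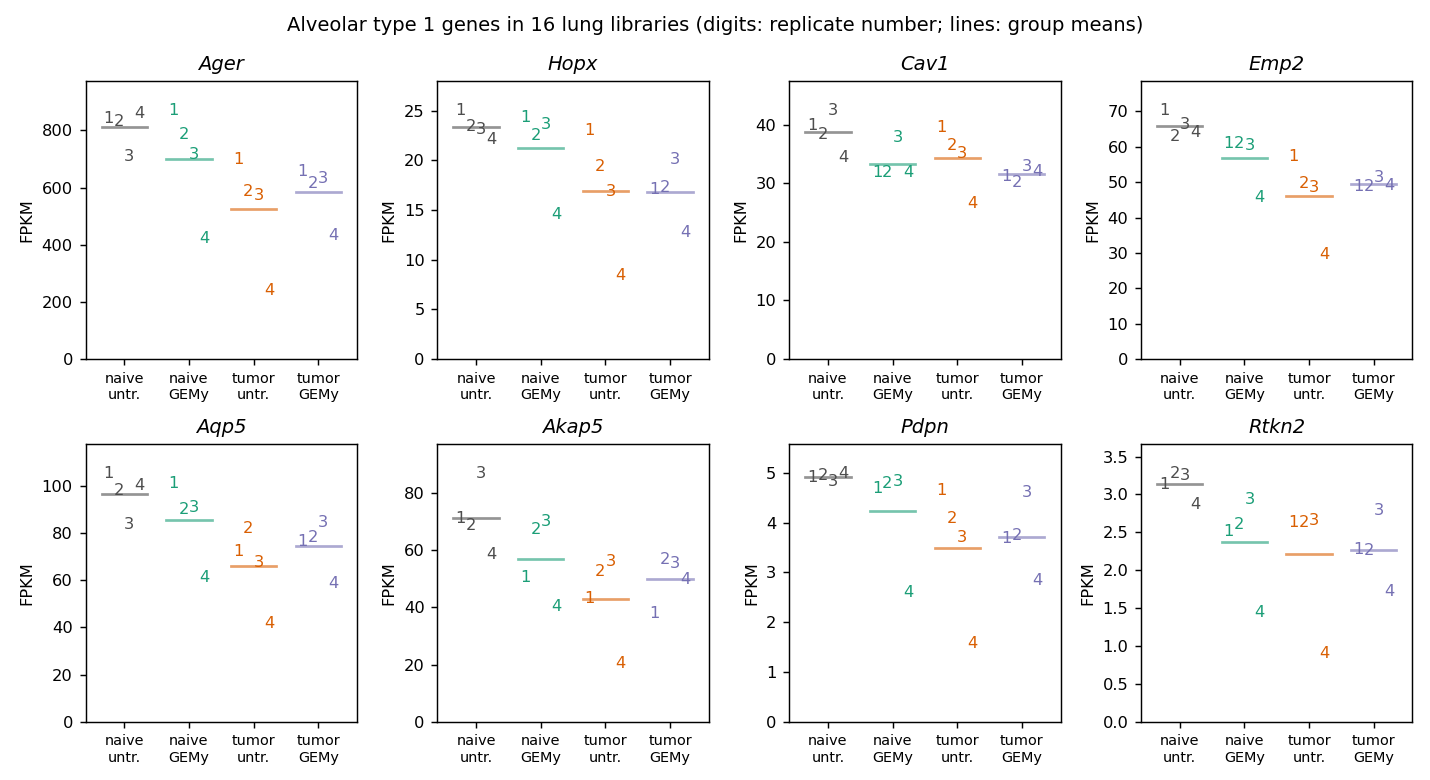
FPKM (y axis, from 0) of the 8 AT1 genes in the 16 lungs, by group (x axis). Digits are replicate numbers and lines are group means; replicate 4 is the lowest tumor untreated lung in every panel and the lowest naive IL12-GEMy lung in every panel.

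Ager encodes RAGE, a receptor of the immunoglobulin family that sits on the basal face of AT1 cells. In naive lungs it was at 843, 832, 709 and 858 FPKM in untreated replicates 1 to 4 and at 869, 786, 718 and 422 in IL12-GEMy replicates 1 to 4. In tumor-bearing lungs it was at 698, 588, 571 and 240 untreated and at 658, 613, 631 and 432 with IL12-GEMys. All 8 tumor-bearing lungs were below the lowest naive untreated lung, while 3 of the 4 treated naive lungs lay inside or above the naive untreated range.

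Aqp5, the water channel of AT1 cells, was at 105, 97.8, 83.5 and 99.9 FPKM in naive untreated lungs and at 100.8, 89.9, 90.6 and 61.1 in naive IL12-GEMy lungs. The tumor untreated lungs had 72.2, 82.0, 67.6 and 41.6 and the tumor IL12-GEMy lungs 76.3, 78.0, 84.3 and 58.6. Tumor untreated lungs did not overlap with naive untreated lungs, whereas tumor IL12-GEMy replicate 3 lay just above the lowest of them.

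Akap5 encodes an anchoring protein that holds protein kinase A and the phosphatase calcineurin at the membrane. It varied most among naive untreated lungs, at 71.1, 68.7, 86.8 and 58.7 FPKM (a coefficient of variation of 16.3%), and was at 50.4, 67.4, 70.0 and 40.4 in naive IL12-GEMy lungs. It was at 43.2, 52.6, 56.0 and 20.3 in tumor untreated lungs and at 37.7, 56.7, 55.2 and 49.9 in tumor IL12-GEMy lungs. Both tumor-bearing groups were wholly below the naive untreated range.

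Emp2 is a small membrane protein of the PMP22 family with 4 membrane spans. It was at 70.2, 62.9, 66.3 and 64.0 FPKM in naive untreated lungs and at 61.0, 61.0, 60.3 and 45.7 in naive IL12-GEMy lungs. It was at 57.2, 49.7, 48.5 and 29.5 in tumor untreated lungs and at 48.7, 48.7, 51.2 and 49.0 in tumor IL12-GEMy lungs. It was the 1 member whose 3 other groups each lay wholly below the naive untreated lungs, and its tumor IL12-GEMy lungs were close together (coefficient of variation 2.48%).

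Cav1 encodes the main coat protein of caveolae, the membrane pits of AT1 cells, and is also abundant in endothelium. It was at 39.9, 38.3, 42.4 and 34.3 FPKM in naive untreated lungs and at 31.8, 31.9, 37.8 and 31.7 in naive IL12-GEMy lungs. It was at 39.5, 36.4, 35.1 and 26.5 in tumor untreated lungs and at 31.2, 30.0, 32.8 and 32.1 in tumor IL12-GEMy lungs. Only its tumor IL12-GEMy lungs lay wholly below the naive untreated range.

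Hopx, a homeodomain protein without DNA binding of its own, was at 24.99, 23.4, 23.2 and 22.1 FPKM in naive untreated lungs and at 24.3, 22.5, 23.6 and 14.5 in naive IL12-GEMy lungs. It was at 23.0, 19.4, 16.8 and 8.36 in tumor untreated lungs and at 17.1, 17.2, 20.1 and 12.7 in tumor IL12-GEMy lungs. Tumor untreated replicate 1 was within the naive untreated range, and the other 7 tumor-bearing lungs were below it.

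Pdpn, the mucin-like glycoprotein podoplanin, was the steadiest member in naive untreated lungs, at 4.91, 4.95, 4.83 and 4.99 FPKM. It was at 4.69, 4.78, 4.83 and 2.59 in naive IL12-GEMy lungs, at 4.64, 4.08, 3.70 and 1.57 in tumor untreated lungs and at 3.69, 3.74, 4.61 and 2.84 in tumor IL12-GEMy lungs. All 8 tumor-bearing lungs were below all naive untreated lungs, and tumor untreated replicate 1 and tumor IL12-GEMy replicate 3 came nearest to them.

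Rtkn2 was at 3.13, 3.28, 3.25 and 2.87 FPKM in naive untreated lungs and at 2.51, 2.61, 2.93 and 1.44 in naive IL12-GEMy lungs. It was at 2.63, 2.63, 2.66 and 0.904 in tumor untreated lungs and at 2.28, 2.26, 2.79 and 1.72 in tumor IL12-GEMy lungs. The first 3 tumor untreated lungs were nearly equal and replicate 4 was far below them.

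Tumor-bearing untreated lungs were lower than naive untreated lungs for all 8 genes in the fitted difference, and 4 of 8 were called. In this comparison 27.2% of the genes tested were called lower (2797) and 16.9% higher (1733); with median-of-ratios scaling 1751 were lower and 2416 higher, and 3 of the 8 members were called. Emp2 differed by -0.55 (SE 0.15, adjusted p = 0.00868), Aqp5 by -0.59 (SE 0.19, adjusted p = 0.0196), Akap5 by -0.81 (SE 0.26, adjusted p = 0.0217) and Ager by -0.73 (SE 0.28, adjusted p = 0.0452). As group means, Ager stood at 64.7%, Akap5 at 60.4%, Aqp5 at 68.2% and Emp2 at 70.2% of naive untreated lungs. Hopx at -0.54 (adjusted p = 0.0759), Pdpn at -0.52 (adjusted p = 0.0863), Rtkn2 at -0.50 (adjusted p = 0.0896) and Cav1 at -0.18 (adjusted p = 0.173) did not pass. The median of the 8 was -0.54, against -0.05 over all genes tested. For 6 of the 8 the groups did not overlap (all but Hopx and Cav1), against 24.1% of all genes tested.

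The size of these differences depended on tumor untreated replicate 4. Without that library the median of the 8 was -0.30 and 1 of them was called, Emp2 at -0.35 (SE 0.10, adjusted p = 0.0121). Of all 10284 genes 2030 were called lower in that fit, against 2797 in the reported one. Ager was then at -0.39 (adjusted p = 0.154), Akap5 at -0.48 (adjusted p = 0.0616) and Aqp5 at -0.38 (adjusted p = 0.0697). Without naive IL12-GEMy replicate 4 as well, which enters this comparison through the shared estimate of spread, the differences were the same and 4 were called: Ager, Akap5, Aqp5 and Emp2. In that fit 2043 of all genes were called lower. Both libraries were picked by the members' own values, so these calls are no test. Akap5 also missed the threshold without naive untreated replicate 3 (adjusted p = 0.0615) and Aqp5 without naive untreated replicate 1 (adjusted p = 0.0517). Ager was called in 6 of 16 fits that left out 1 library, Akap5 and Aqp5 in 14 and Emp2 in 16. Hopx and Pdpn passed when tumor untreated replicate 1, the highest of its group for both, was left out (adjusted p = 0.0203 and 0.0345). With log2 of the hemoglobin share as a covariate 0 of 8 passed limma's threshold. The differences were then -0.09 for Cav1 and between -0.27 and -0.54 for the others. Of all genes 1777 were called lower with this covariate. The share was 0.190 to 1.51% in naive untreated and 0.553 to 5.41% in tumor untreated lungs. The covariate can therefore take up part of the group difference, and what it takes up was not tested.

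Tumor-bearing lungs that received IL12-GEMys were compared with the same naive untreated lungs, so the 2 comparisons share them. All 8 genes were again lower in the fitted difference and 2 of 8 were called, against 25.6% of genes called lower (2635) and 13.6% called higher (1403). With median-of-ratios scaling 1363 genes were lower and 1993 higher, and limma called 0 of the 8, whose median was then -0.31. Cav1 differed by -0.29 (SE 0.10, adjusted p = 0.0383), to 81.4% of the naive untreated mean, and Emp2 by -0.41 (SE 0.15, adjusted p = 0.0412), to 75.0%. The other 6 were between -0.38 for Pdpn and -0.51 for Akap5, with adjusted p between 0.118 and 0.217. The median of the 8 was -0.41, against -0.07 over all genes tested. For 7 of the 8, all but Aqp5, the groups did not overlap, against 26.5% of all genes tested. Tumor untreated replicate 4 widened the shared spread: without it the same differences passed for 7 of 8, all but Pdpn (adjusted p = 0.0623), with Emp2 at an adjusted p of 0.00192. Without that library and naive IL12-GEMy replicate 4 all 8 passed, with adjusted p between 0.000166 for Emp2 and 0.0144 for Akap5. Of all genes 2985 were called lower without the first library and 2971 without both. Neither library belongs to the groups compared, and both were picked by the members' own values. The smaller p-values without them follow from that choice and are no test. Leaving out any 1 naive untreated or tumor IL12-GEMy library took Emp2 over the threshold (adjusted p between 0.0584 and 0.0931), and Cav1 missed it without any of these but naive untreated replicate 4 (between 0.0503 and 0.105).

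Naive IL12-GEMy lungs differed from naive untreated lungs by values below 0 for all 8 genes, from -0.17 for Hopx to -0.37 for Rtkn2, and limma called 0 of 8. None of the 8 was under 0.05 before adjustment, and adjusted p ran from 0.267 to 0.759. In this comparison 1.5% of genes were called lower and 5.6% higher, and the median of the 8 was -0.22, against -0.02 over all genes. The groups did not overlap for 1 gene, Emp2, against 8.1% of genes. Without naive IL12-GEMy replicate 4 the median of the 8 was -0.08, with Hopx at 0.00, Ager at -0.04, Pdpn at -0.04 and Aqp5 at -0.04, and limma still called 0. Rtkn2, Akap5 and Cav1 then stood at -0.19 each. With all libraries and the hemoglobin covariate the median moved the other way, to -0.40, from -0.30 to -0.63, and limma called 0 there too.

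**Figure D2:**
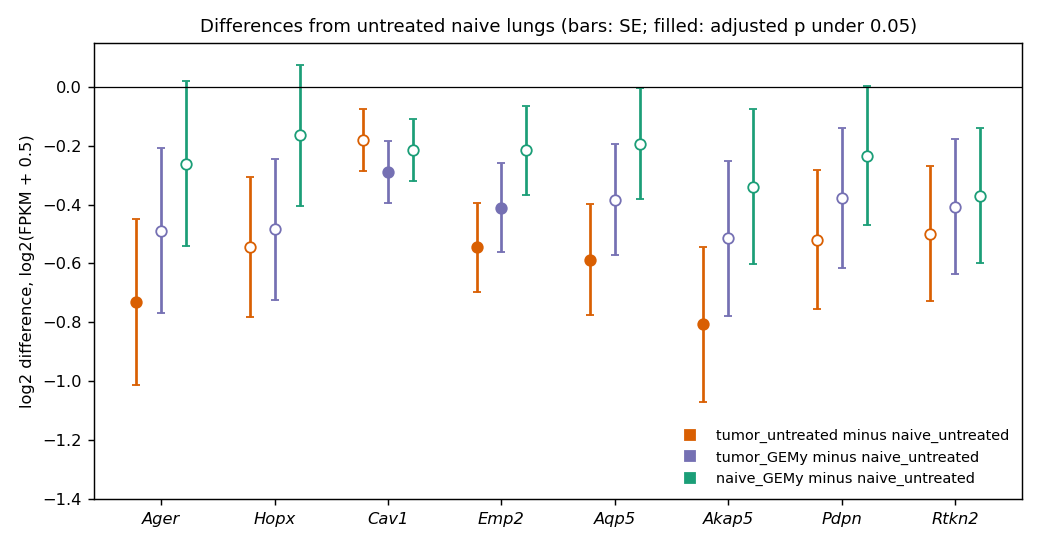
Difference from naive untreated lungs of each AT1 gene (y axis, log2(FPKM + 0.5)) in the other 3 lung groups, with bars of 1 SE. Filled points passed an adjusted p of 0.05: 4 of 8 genes in tumor untreated lungs, 2 in tumor IL12-GEMy lungs and 0 in naive IL12-GEMy lungs.

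Among tumor-bearing lungs, none of the 8 genes was called between treated and untreated lungs with all 16 libraries weighted equally; with array weights Cav1 was, at -0.21 (adjusted p = 0.0396). With all libraries 7 of the 8 were higher in treated lungs, up to 0.29 for Akap5 (SE 0.26) and 0.24 for Ager (SE 0.28), and Cav1 was at -0.11. Limma called 0 of 8, with 0 under 0.05 before adjustment and adjusted p between 0.603 and 0.934, against 3% of genes called higher and 3.72% called lower. The sign rested on 1 lung: without tumor untreated replicate 4 all 8 were below 0, from -0.0008 for Aqp5 to -0.24 for Hopx, and 0 were called. The median of the 8 moved from 0.14 to -0.12, while that of all genes tested was -0.01 and then -0.03. For all 8 genes the ranges of treated and untreated lungs overlapped. Of all genes tested only 4.8% lay wholly lower and 4.7% wholly higher in treated lungs, so nothing is read from this about the 8.

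**Figure D3:**
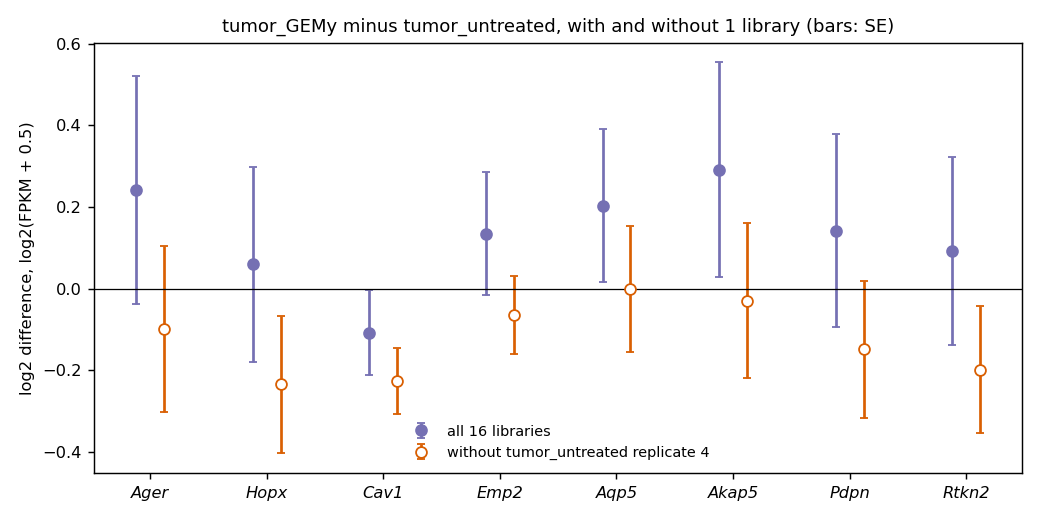
Tumor IL12-GEMy minus tumor untreated lungs for each AT1 gene (y axis, log2(FPKM + 0.5)), with bars of 1 SE. Filled points use all 16 lungs and open points leave out tumor untreated replicate 4, which takes 7 of the 8 genes from above to below 0.

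Treated tumor-bearing lungs were also set against treated naive lungs, which differ by the tumor and by the letters in their descriptions. All 8 differences were below 0, from -0.04 for Rtkn2 to -0.32 for Hopx, with a median of -0.18 against -0.05 over all genes. Limma called 0 of 8, with 0 under 0.05 before adjustment, against 9.17% of genes called lower (943) and 4.03% called higher (414), a split that turned to 396 lower and 543 higher with median-of-ratios scaling. Without naive IL12-GEMy replicate 4 the median was -0.33 and limma called 0; tumor IL12-GEMy replicate 4, almost as low, stays in that fit.

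The interaction asks whether the difference with IL12-GEMys was another in tumor-bearing than in naive mice. It was above 0 for all 8 genes, from 0.11 for Cav1 to 0.63 for Akap5, with adjusted p between 0.373 and 0.763. Limma called 0 of 8, 0 were under 0.05 before adjustment, and 5.22% of genes were called lower and 1.04% higher. Its median over the 8 was 0.39, and 0.16 without tumor untreated replicate 4, with 0 called there too. Without naive IL12-GEMy replicate 4 as well the median was -0.02, with 5 of 8 below 0 and 0 called. Both libraries were picked by these same genes, so that value is a description.

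The 8 genes moved together from lung to lung. Over the 28 pairs, Pearson's r of log2 values across the 16 lungs ran from 0.57 to 0.98 with a median of 0.89, and after centring on group means from 0.52 to 0.98 with a median of 0.88. Without tumor untreated replicate 4 and naive IL12-GEMy replicate 4 (14 lungs) the median was 0.71 and the lowest 0.23. These are descriptions of lungs that share groups and libraries. Cav1 followed the mean of the 8 least (r = 0.79) and Pdpn most (r = 0.98), both as members of that mean. Outside the members, the genes most like that mean were Pmp22 (r = 0.983), the peripheral myelin protein after which the family of Emp2 is named, Fbln5 (0.981), an elastic fibre protein, Nt5e (0.978), an ectoenzyme that makes adenosine, Cldn18 (0.974), the claudin of alveolar tight junctions, and Hs2st1 (0.973), a heparan sulfate sulfotransferase. Of 9950 genes compared, 126 (1.27%) had an r over 0.9. Pmp22 was at 19.2 ± 0.828 FPKM (SD, n = 4) in naive untreated and 13.7 ± 3.91 in tumor untreated lungs, with 8.00 in tumor untreated replicate 4 and 11.6 in naive IL12-GEMy replicate 4.

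Other genes known from AT1 cells showed the same lungs as low. Of 18 further AT1 genes 17 were tested, and 6 were called lower and 0 higher in tumor untreated than in naive untreated lungs, with a median of -0.42. That is 6 of 17 beside the 27.2% of all genes called lower in this comparison, and nothing is read from it about AT1 genes as such. The 2 largest calls were Krt7, a keratin, at -0.66 (SE 0.25, adjusted p = 0.042) and Cldn18 at -0.59 (SE 0.20, adjusted p = 0.0237). In tumor IL12-GEMy lungs 1 of 17 was called lower, the actin-binding Limch1 at -0.42 (adjusted p = 0.0083), where 25.6% of all genes were, and 0 were called in the other comparisons of 2 groups. Their median shift was -1.03 in tumor untreated replicate 4 and -0.70 in naive IL12-GEMy replicate 4, and in the other lungs between -0.51 and 0.09.

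AT2 genes were not at their lowest in these 2 lungs. Of 12 AT2 genes 9 were called lower in tumor untreated lungs, beside 27.2% of all genes tested, with a median of -0.37. They were led by Lpcat1, which makes surfactant lipid (-0.55, adjusted p = 2.91e-06), and Sftpc, surfactant protein C (-0.53, adjusted p = 0.000383). By lung, the median AT2 shift was -0.34 in tumor untreated replicate 4, inside the -0.30 to -0.55 of the other 3, where that of the 8 AT1 genes was -1.38. In naive IL12-GEMy replicate 4 the AT2 shift was 0.00 and that of the AT1 genes -0.73. Some other lists were at their group's lowest in these lungs, with smaller shifts. Among them in tumor untreated replicate 4 were the fibroblast list (-0.69), the general epithelial list (-0.60), the caveola coat list (-0.43) and the endothelial list (-0.33). In naive IL12-GEMy replicate 4 they included the mesothelial (-0.33), fibroblast (-0.31) and general epithelial (-0.20) lists. Genes known from AT2 cells on their way to AT1 were lowest in both lungs (-0.57 and -0.23). So were AT1 transcription factors with Hippo pathway genes (-0.53 and -0.18). Sftpc itself was at 4650.4 FPKM in naive IL12-GEMy replicate 4, against 4705 ± 220.3 (SD, n = 4) in naive untreated lungs.

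**Figure D4:**
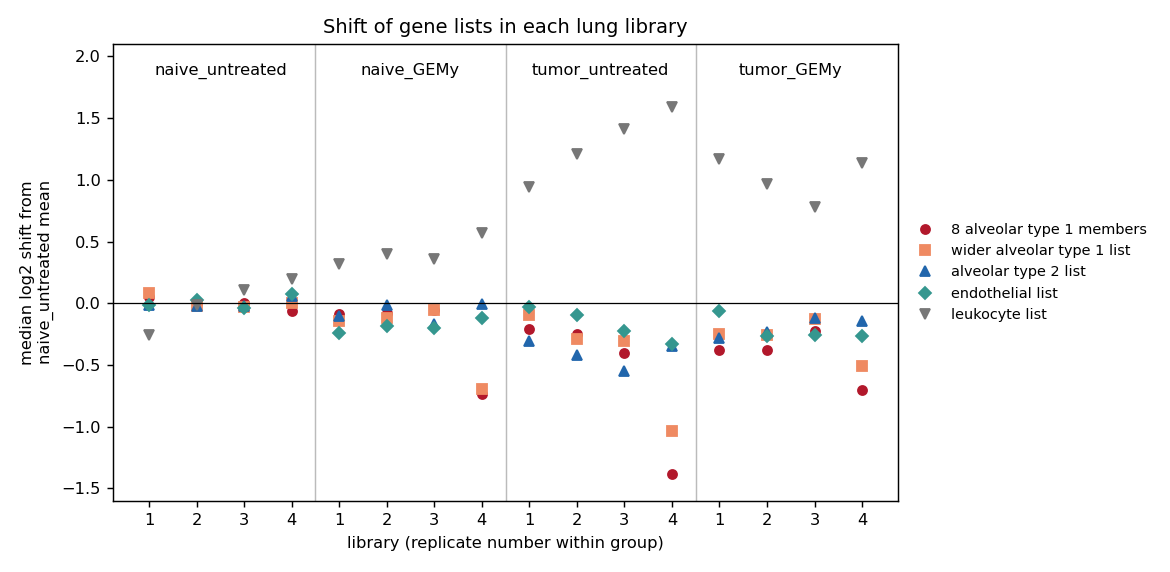
Median log2 shift from the naive untreated mean (y axis) of 5 gene lists in each lung (x axis, replicate number within group). The 8 AT1 genes (circles) and the wider AT1 list (squares) drop to -1.38 and -1.03 in tumor untreated replicate 4 and to -0.73 and -0.70 in naive IL12-GEMy replicate 4, where the AT2 list (triangles) is at -0.34 and 0.00.

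Markers of other cells moved between the groups as well. Over all genes tested, 27.2% were called lower and 16.9% higher in tumor untreated than in naive untreated lungs. Of 10 leukocyte genes 8 were called higher and 1 lower in tumor untreated lungs (median 1.27), and their summed reads per 1000000 were 1060 to 1412 in naive untreated, 1518 to 1958 in naive IL12-GEMy, 4787 to 6866 in tumor untreated and 2822 to 5303 in tumor IL12-GEMy lungs. Those of the 8 AT1 genes were 7804 to 8381, 5075 to 7605, 3310 to 7023 and 5278 to 6472 in the same order. Within the tumor untreated group the leukocyte shift was highest, at 1.59, in replicate 4, where the AT1 genes were lowest. The 12 endothelial genes had 5 called lower and a median of -0.21, with Kdr (-0.50) and Ednrb (-0.50) the largest. The 7 airway genes tested had 7 called lower (median -0.44), led by Scgb3a1 (-0.63) and Tppp3 (-0.54), and the 8 general epithelial genes 7 (median -0.49), led by Krt7 (-0.66) and Elf3 (-0.59). The 8 fibroblast genes had 6 called lower (median -0.43), led by Mfap4 (-0.83) and Npnt (-0.64), and the 4 mesothelial genes tested 4 (median -0.38), led by Upk3b (-0.53) and Lrrn4 (-0.43). Of 4 lymphatic genes tested, Lyve1 was called higher (0.79) and Ccl21a lower (-0.45). The 7 red cell genes had a median of 1.59, with 0 called by limma and none at 0 in any lung. Among these, Hbb-bt and Hbb-b2 had the same mean, SD and range in every group, so the 7 are not all separate measurements. The hemoglobin share adds both entries. The part of these other cells in the AT1 values was not tested.

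Partners and relatives of the members were taken by role. Their counts stand beside 27.2% of all genes called lower and 16.9% called higher in tumor untreated than in naive untreated lungs. Ligands of RAGE were higher in the comparison in which Ager was called lower: 5 of 6 tested were called higher in tumor untreated lungs, among them S100a8 (4.56, adjusted p = 7.05e-08) and S100a9 (4.48, adjusted p = 4.55e-08), calcium-binding proteins of neutrophils that the leukocyte list also holds. S100a8 was at 38.0 ± 8.51 FPKM (SD, n = 4) in naive untreated and 914 ± 259 in tumor untreated lungs. Of the 6 caveola coat genes tested beside Cav1, 2 were called lower, Ehd2 at -0.55 (adjusted p = 0.00369) and Cavin3 at -0.26 (adjusted p = 0.0483). That count is near the share of all genes called lower, and nothing is read from it about caveolae. Of 6 podoplanin partners, 2 were called higher, the hyaluronan receptor Cd44 at 0.85 (adjusted p = 2.55e-05) and the membrane linker Msn at 0.20 (adjusted p = 0.013), and 1 lower. Paralogs went both ways: of 9 tested 3 were called higher and 5 lower, with Emp1 at 0.56 (adjusted p = 0.000154) where Emp2 was at -0.55, and Rtkn at -0.59 (adjusted p = 1.69e-06).

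Regulators of the AT1 state were counted in the same way. Of 13 tested transcription factors of AT1 cells, Hippo pathway members and targets of the pathway, 7 were called lower and 0 higher in tumor untreated lungs, with a median of -0.32, beside 27.2% of all genes called lower. The 2 largest calls were Ankrd1, a target of the pathway, at -0.57 (adjusted p = 0.0186) and the endoderm factor Gata6 at -0.48 (adjusted p = 0.000442). In tumor IL12-GEMy lungs 5 were called lower than in naive untreated lungs, beside 25.6% of all genes, led by the matricellular Ccn1 at -1.001 (adjusted p = 0.00381). Genes known from AT2 cells on their way to AT1 were split: of 11, 4 were called higher and 6 lower in tumor untreated lungs, beside 16.9% and 27.2% of all genes. Among them were the cell cycle inhibitor Cdkn1a at 1.33 (adjusted p = 0.000131) and the claudin Cldn4 at -0.86 (adjusted p = 4.25e-05). Cdkn1a was at 6.36 ± 0.383 FPKM (SD, n = 4) in naive untreated and 17.2 ± 4.93 in tumor untreated lungs, and it is also made by cells outside the epithelium.

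In the injected cell product, a single library of 31111336 assigned reads, the 8 genes were near absent. Aqp5 had 0 reads, which allows up to 0.0964 reads per 1000000, and Cav1 had 3 reads. Ager had 35, Akap5 29, Emp2 30, Rtkn2 78, Hopx 90 and Pdpn 93. The lowest lung held 16.9 times as many reads per 1000000 of Pdpn as the product, 23.2 times as many of Rtkn2 and 658 times as many of Ager.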

How the data were processed

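RNA of flash-frozen lungs was isolated with TRIzol, per the labels' protocols. STAR 2.7.3a, Partek and the build mm10 are named in the submitters' processing notes; annotation, strand and counting settings are not given in the sources used here. The authors deposited FPKM for 18262 genes. Multiplied by each gene's span in kilobases, introns included, each column added up to 1000000, which makes the product reads per 1000000 assigned (RPM). The step of low values gave assigned reads, whole within 0.02 for 86.7 to 88.4% of values under 1000 reads.

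Groups came from the labels. log2(FPKM + 0.5) of 10284 genes with at least 0.5 FPKM in 4 or more lungs was fitted with limma 3.58.1 (R 4.3.3; trend and robust moderation, two-sided), 1 mean per group over all 16 lungs, with Benjamini-Hochberg adjustment over those genes; the script was tested on simulated data. Summaries used Python 3.11.15. Alternatives were other pseudocounts, minimums, scalings, models, a hemoglobin covariate, a replicate block and leaving out libraries; leaving out tumor untreated replicate 4 and naive IL12-GEMy replicate 4 together was chosen after seeing the data. Fixed gene lists are given by counts and median and by the 2 called genes with the largest difference, mainly for untreated tumor-bearing against untreated naive lungs; the 5 genes with the highest correlation with the mean of the members are named. The members and lists were chosen with earlier results of these data known. The cell product has 1 library and no test. The list of genes that act with AKAP5 is not reported here.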

Additional observations from a re-analysis of the deposited data

Results flagged for a closer look

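Each member was checked in each of the 4 lung groups by Dixon's test. A check was met when the highest or lowest lung stood far from the other 3, and 5 of 32 were met. For any 1 check alone chance gives about 1 in 20. The members moved together within groups (median r = 0.88 over 28 pairs), so the 32 checks are not separate trials. Whether 5 is more than chance gives cannot be judged from them. Pdpn was at 2.59 FPKM and Emp2 at 45.7 FPKM in naive IL12-GEMy replicate 4, each the lowest of its group, and Rtkn2 was at 0.904 FPKM in tumor untreated replicate 4. Cav1 was at 37.8 FPKM in naive IL12-GEMy replicate 3 and Emp2 at 51.2 FPKM in tumor IL12-GEMy replicate 3, each the highest of its group.

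The cell product, which enters no comparison, held reads above the 3 that a count of 0 allows for 6 of the 8 genes. Their FPKM there were 0.364 for Ager, 0.103 for Hopx, 0.101 for Akap5, 0.0930 for Pdpn, 0.0390 for Rtkn2 and 0.0299 for Emp2, each below the lowest lung.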

How the results depend on the processing

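The 8 differences of tumor untreated and of tumor IL12-GEMy from naive untreated lungs were below 0 under all 240 values computed for each comparison, and those of naive IL12-GEMy lungs under 238 of 240. The number of members called moved more. For tumor untreated lungs (4 called, 2797 of all 10284 genes lower) it was 0 with the hemoglobin covariate (1777 lower). It was 1 to 6 with 1 library left out: 1 without tumor untreated replicate 4 (2030 lower) and 6 without replicate 1 (3080 lower). For tumor IL12-GEMy lungs (2 called) it was 8 with only the compared groups fitted, with array weights or without both low libraries, with 2805, 3918 and 2971 of all 10284 genes called lower in these fits against 2635 in the reported one. It was 0 without a minimum (3749 of 18259 genes lower), with median-of-ratios scaling (1363 lower) or with the hemoglobin covariate (2105 lower). It was 0 to 7 with 1 library left out, 7 being without tumor untreated replicate 4 (2985 lower). Array weights called 1 in naive IL12-GEMy against naive untreated lungs and 1 in treated against untreated tumor-bearing lungs, both Cav1 (-0.23 and -0.21). Of all genes 834 and 1664 were called lower in these fits. Between the treated groups 4 members were called without both low libraries, with 1504 of all genes called lower. Those libraries were picked by the members' own values and tumor IL12-GEMy replicate 4, almost as low, was kept, so these last values follow from the choice and are no test. The cause of these changes was not tested.

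The titles number the lungs 1 to 4 in each group, and the descriptions list the 4 lungs of a number together; no label says what such a set shares. Same-numbered lungs had correlations of their deviations from -0.313 to 0.594 (24 pairs, 12 over 0.1; the highest was naive IL12-GEMy with tumor untreated replicate 4) and 7 of 16 lungs were closest to their own number. The median of these pairs was 0.123. For the 72 pairs of lungs with different numbers it was -0.0538, with 21 over 0.1. A fit with a replicate block called 7 members in tumor untreated (also Hopx, Pdpn and Rtkn2, with adjusted p of 0.0116, 0.0231 and 0.011) and 6 in tumor IL12-GEMy lungs against naive untreated lungs, and 0 in the other comparisons. Of all 10284 genes it called 2892 lower in tumor untreated and 2855 in tumor IL12-GEMy lungs. The reported fit called 2797 and 2635.

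Signs turned where the values were small. Without tumor untreated replicate 4 and naive IL12-GEMy replicate 4, treated minus untreated tumor-bearing lungs were -0.0988 (Ager), -0.0301 (Akap5), -0.000773 (Aqp5), -0.0641 (Emp2), -0.235 (Hopx), -0.149 (Pdpn) and -0.199 (Rtkn2), the same as without the first alone. The interaction was then -0.0627 (Ager), -0.0335 (Cav1), -0.239 (Hopx), -0.108 (Pdpn) and -0.00796 (Rtkn2), and the naive difference of Hopx 0.00325. With the hemoglobin covariate, treated tumor-bearing minus treated naive lungs were 0.0621 (Ager), 0.279 (Akap5), 0.0525 (Cav1), 0.0312 (Emp2), 0.198 (Pdpn) and 0.302 (Rtkn2), and treated minus untreated tumor-bearing lungs -0.0259 (Hopx) and -0.0148 (Rtkn2). Array weights gave the latter as -0.0802 (Hopx), -0.0250 (Pdpn) and -0.104 (Rtkn2), and median-of-ratios scaling gave Rtkn2 0.0228 between the treated groups.

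With 1 library left out, treated minus untreated tumor-bearing lungs ranged from -0.0988 to 0.41 (Ager), -0.0301 to 0.45 (Akap5), -0.000773 to 0.32 (Aqp5), -0.0641 to 0.25 (Emp2), -0.235 to 0.23 (Hopx), -0.149 to 0.29 (Pdpn) and -0.199 to 0.19 (Rtkn2). The interaction ranged from -0.0122 to 0.176 (Cav1) and -0.0703 to 0.399 (Hopx), the naive difference of Hopx from -0.238 to 0.00325, and Rtkn2 between the treated groups from -0.216 to 0.0630.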
